A study of Mus musculus with 4 samples.

Results

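The expression of 10 genes known from osteoclasts, the bone-resorbing cells of the myeloid lineage, was followed across CD45+ cells of a mouse melanoma. They were the matrix enzymes Ctsk, Acp5 and Mmp9, the proton pump subunit Atp6v0d2, the sodium-proton exchanger Slc9b2, the receptor Oscar, the transcription factor Nfatc1, the fusion proteins Dcstamp and Ocstamp, and the metallothionein Mt3. All 10 were present among the 12584 genes of the table, and they were taken by symbol, by annotated cell class and by library, inside and outside the macrophage class named Ctsk_Macro (587 of 34447 cells). They were chosen because earlier results of these same data had shown them high in that class, and 6 of them (Ctsk, Acp5, Mmp9, Atp6v0d2, Slc9b2 and Nfatc1) are on the marker list that the study itself made for it. Their height in Ctsk_Macro is therefore a description of the choice, not a finding, and no test is attached to it.

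The cells came from YUMM1.7 melanomas carrying the model antigen ovalbumin and resistant to targeted therapy (RTT), grown in Rag2-/- mice, which make no T or B cells of their own. All mice received adoptive transfer (ACT) of OT-1 CD8+ T cells on day 7, and tumours were taken on day 10, 72 h after ACT. The groups were RTT tumours of a line with an mCherry vector and no drug (CTRL), RTT tumours whose cancer cells overexpressed Irf3 and Irf7 (IRF3/7), mCherry RTT tumours given celecoxib, which inhibits COX2 (COX2i), and mCherry RTT tumours given celecoxib together with 5-azacytidine, which inhibits DNA methyltransferases (COX2i + 5-AZA). Each group was 1 library made from 3 tumours pooled before live CD45+ cells were sorted and fixed for 22 h. There were no replicate libraries, so no test between groups was possible, each difference is one between single pools, and every interval given is an exact 95% interval for counting error only.

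Osteoclasts arise when monocytes or macrophages receive CSF1 and RANK ligand, and a co-stimulatory signal runs through receptors such as OSCAR that pair with ITAM adaptors. Calcium signalling then activates NFATc1, the master transcription factor of the fate, which acts with PU.1, AP-1 and MITF on the promoters of the effector genes. Precursors fuse through DC-STAMP and OC-STAMP, seal a pocket of bone, acidify it with a V-ATPase and digest the matrix with cathepsin K and other enzymes. Several of these products are also made by other cells, such as TRAP (Acp5) by activated macrophages, gelatinase B (Mmp9) by neutrophils and DC-STAMP by dendritic cells.

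The promoters of 4 members are printed because over all libraries more than 90% of the UMIs of each gene lay in Ctsk_Macro and each had a single window in the RefSeq promoter table (GRCm38.p6). Each run is the 250 bases before the start used in that table, 5′ to 3′ on the gene's strand, with letters that matched a searched motif in capitals. Distances are counted from that start. For Ctsk it lies upstream of the GENCODE start given below (95499256), since the window ends at 95499209. The motifs were GGAAA (the NFAT core), TGANTCA (AP-1), CACGTG (an E-box), TCANGTG (the M-box of MITF and TFE factors) and GAGGAA (PU.1), on both strands, and the NFAT and PU.1 letters can overlap.
Ctsk (chr3:95498960-95499209, plus strand): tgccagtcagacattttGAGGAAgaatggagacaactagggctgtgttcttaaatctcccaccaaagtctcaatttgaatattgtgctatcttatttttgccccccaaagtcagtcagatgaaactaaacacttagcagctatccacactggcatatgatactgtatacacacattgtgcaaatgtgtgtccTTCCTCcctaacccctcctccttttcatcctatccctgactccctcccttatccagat
Slc9b2 (chr3:135307450-135307699, plus strand): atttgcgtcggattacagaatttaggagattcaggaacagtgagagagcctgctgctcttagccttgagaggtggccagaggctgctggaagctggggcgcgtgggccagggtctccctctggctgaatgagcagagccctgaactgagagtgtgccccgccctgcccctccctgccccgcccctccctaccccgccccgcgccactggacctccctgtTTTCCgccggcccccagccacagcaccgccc
Oscar (chr7:3616158-3616407, minus strand): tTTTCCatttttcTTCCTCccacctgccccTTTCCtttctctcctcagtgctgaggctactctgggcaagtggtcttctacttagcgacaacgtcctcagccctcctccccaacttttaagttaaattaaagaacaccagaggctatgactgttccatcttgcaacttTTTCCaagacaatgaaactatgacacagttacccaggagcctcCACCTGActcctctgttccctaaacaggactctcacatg
Mt3 (chr8:94152357-94152606, plus strand): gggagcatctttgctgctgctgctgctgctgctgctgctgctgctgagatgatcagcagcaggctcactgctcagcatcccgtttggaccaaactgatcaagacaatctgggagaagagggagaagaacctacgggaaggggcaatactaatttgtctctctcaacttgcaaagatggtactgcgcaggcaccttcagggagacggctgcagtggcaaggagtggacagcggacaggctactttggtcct
The Ctsk window held 2 PU.1 matches, 233 bases upstream of the start and, on the opposite strand, 58 bases upstream. Oscar held 3 NFAT cores (249, 220 and 82 bases upstream), 1 PU.1 match and 1 M-box, Slc9b2 held 1 NFAT core 31 bases upstream, and Mt3 held none of the 5 motifs. Acp5 had 3 windows, with 1, 1 and 2 NFAT cores and 1 M-box in the last. Of all 32851 windows of this length, 55.6% held the NFAT core, 23.3% the PU.1 letters, 12.2% the M-box, 6.7% the AP-1 letters and 6.0% the E-box. A match is a match of letters only. In all, 5 of the 10 members matched the promoter table.

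In the annotation (GENCODE vM21, GRCm38), Ctsk (ENSMUSG00000028111) lies at chr3:95499256-95509362 on the plus strand, Acp5 (ENSMUSG00000001348) at chr9:22126727-22135711 on the minus strand and Mmp9 (ENSMUSG00000017737) at chr2:164940780-164955850 on the plus strand. Atp6v0d2 (ENSMUSG00000028238) lies at chr4:19876841-19922605 (minus), Slc9b2 (ENSMUSG00000037994) at chr3:135307700-135345387 (plus), Oscar (ENSMUSG00000054594) at chr7:3609813-3616157 (minus), Dcstamp (ENSMUSG00000022303) at chr15:39745930-39760938 (plus), Ocstamp (ENSMUSG00000027670) at chr2:165393760-165400405 (minus) and Mt3 (ENSMUSG00000031760) at chr8:94152607-94154146 (plus). Nfatc1 is ENSMUSG00000033016. Ocstamp and Mmp9 thus sit on the same chromosome, and Ctsk and Slc9b2 on another.

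The libraries held 6329 to 10032 cells and 26356819 to 78722763 unique molecular identifiers (UMIs), with the IRF3/7 library the shallowest (median of 3168 UMIs per cell against 6039.5 to 7502). Levels are UMIs of a gene over all UMIs of the cells considered, in the usual unit CPM, and 3 UMIs in a library correspond to 0.0381 to 0.114 CPM over all its cells. Ctsk_Macro was 380 of 8953 cells in CTRL (4.24%, 3.84 to 4.68), 13 of 6329 in IRF3/7 (0.205%, 0.109 to 0.351), 157 of 9133 in COX2i (1.72%, 1.46 to 2.01) and 37 of 10032 in COX2i + 5-AZA (0.369%, 0.26 to 0.508). Because the members are among the genes that set this class apart, these shares are given only as the numbers of cells behind the levels. The libraries were multiplexed by probe barcode, and 10018 of the cells (29.1%) carried a droplet barcode that also occurred in another library, with 0 full barcodes shared. No doublet caller was run, and 208 cells outside Ctsk_Macro shared a droplet barcode with a Ctsk_Macro cell.

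The class name was set against marker genes that are not members. All 7 macrophage markers (Adgre1, Csf1r, Mrc1, C1qa, C1qb, C1qc and Cd68) had UMIs in Ctsk_Macro of CTRL, COX2i and COX2i + 5-AZA, and 6 of 7 in IRF3/7, where Adgre1 was at 0. Their summed level was lower than in the other monocytes and macrophages in all 4 libraries (9369 against 20393 CPM in CTRL, 3869 against 7456 in IRF3/7, 6871 against 18958 in COX2i and 9334 against 15877 in COX2i + 5-AZA). The 7 osteoclast genes outside the members (Calcr, Car2, Itgb3, Siglec15, Tcirg1, Tnfrsf11a and Ckb) summed to 1763 to 2405 CPM in Ctsk_Macro and to 649 to 699 CPM in the other monocytes and macrophages, and in IRF3/7 Calcr and Itgb3 were at 0. The cDC2 markers summed to 296 to 1395 CPM in Ctsk_Macro and to 884 to 3613 CPM in the other monocytes and macrophages. The cycling markers summed to 151, 522, 299 and 254 CPM against 537, 48.5, 1029 and 394 CPM in CTRL, IRF3/7, COX2i and COX2i + 5-AZA, so they were the higher of the pair only in IRF3/7. The neutrophil markers summed to 122, 46.2, 201 and 63.5 CPM against 135, 1219, 44.6 and 552 CPM, so they were the higher of the pair only in COX2i. NK cell markers summed to at most 13.2 CPM and mast cell markers to at most 7.87 CPM, and of the 4 CD8 T cell markers only Trac had UMIs (10.4 to 18.2 CPM, with at most 0.452 CPM for all 4 in the other monocytes and macrophages). Cells of the class thus carried macrophage transcripts together with osteoclast transcripts, and the label Ctsk_Macro is used below as the authors deposited it.

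The matrix enzymes were the most counted members inside Ctsk_Macro. Ctsk, which encodes the collagen-cleaving protease cathepsin K, stood at 27454 CPM (27288 to 27621) in CTRL, 7217 (6796 to 7658) in IRF3/7, 22053 (21825 to 22282) in COX2i and 19273 (18865 to 19687) in COX2i + 5-AZA. Acp5, which encodes tartrate-resistant acid phosphatase, stood at 19738 CPM (19597 to 19880), 5652 (5280 to 6044), 13739 (13560 to 13920) and 13039 (12704 to 13380) in the same order. Mmp9, which encodes the gelatinase MMP9, stood at 26966 CPM (26801 to 27131), 7468 (7039 to 7916), 18184 (17978 to 18393) and 21211 (20783 to 21645). For all 3 enzymes CTRL was highest and IRF3/7 lowest, and the order of the 2 drug libraries differed between Ctsk and Mmp9. Counts of different genes also depend on how well their probes bind, so no order among genes is read from these values.

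Cells of the class varied around these sums. The median Ctsk_Macro cell of CTRL held 27699 CPM of Ctsk (quartiles 17631 and 36164), and 2 of 380 cells had no Ctsk UMI. The medians were 20522 CPM in COX2i and 19170 CPM in COX2i + 5-AZA, with 4 of 157 and 1 of 37 cells without a Ctsk UMI. In IRF3/7 the median was 4305 CPM, 4 of 13 cells had no Ctsk UMI, and 1 cell held 26.5% of the class's Ctsk UMIs, so the values of that library rest on very few cells. The Mmp9 medians were 29334, 3114, 18206 and 21581 CPM in the order CTRL, IRF3/7, COX2i and COX2i + 5-AZA, with 6, 3, 8 and 1 cells at 0.

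The acid and transport genes came next in role. Atp6v0d2, the d2 subunit of the membrane part of the V-ATPase, stood in Ctsk_Macro at 1004 CPM (972 to 1036) in CTRL, 456 (354 to 577) in IRF3/7, 865 (820 to 912) in COX2i and 869 (784 to 960) in COX2i + 5-AZA. Slc9b2, a sodium-proton exchanger that is made during osteoclast differentiation, stood at 893 CPM (863 to 923), 132 (80.7 to 204), 844 (800 to 890) and 492 (429 to 562). The CTRL and COX2i intervals of Slc9b2 overlapped, and the COX2i + 5-AZA and IRF3/7 intervals lay below both.

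Oscar, the collagen receptor that gives the co-stimulatory signal, stood in Ctsk_Macro at 426 CPM (405 to 447) in CTRL, 112 (65.4 to 180; 17 UMIs) in IRF3/7, 324 (297 to 353) in COX2i and 440 (380 to 507) in COX2i + 5-AZA. Nfatc1 stood at 1739 CPM (1697 to 1781), 773 (639 to 926), 1619 (1558 to 1682) and 1021 (929 to 1120). CTRL and COX2i + 5-AZA could not be separated for Oscar at this depth, whereas for Nfatc1 COX2i + 5-AZA lay below CTRL and COX2i.

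The fusion genes and Mt3 departed from the enzymes. Dcstamp stood in Ctsk_Macro at 255 CPM (239 to 271) in CTRL, 33 (10.7 to 77; 5 UMIs) in IRF3/7, 316 (290 to 345) in COX2i and 340 (288 to 399) in COX2i + 5-AZA. Ocstamp stood at 341 CPM (323 to 360), 627 (508 to 767), 461 (429 to 496) and 592 (522 to 668), with CTRL the lowest of the 4. Mt3, which encodes a zinc- and copper-binding protein best known from brain, stood at 1684 CPM (1643 to 1725), 1796 (1589 to 2023), 1494 (1436 to 1555) and 2074 (1941 to 2213). Mt3 was uneven between cells: in CTRL the median cell held 834 CPM, 114 of 380 cells had no UMI and the highest cell held 16385 CPM.

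**Figure D1:**
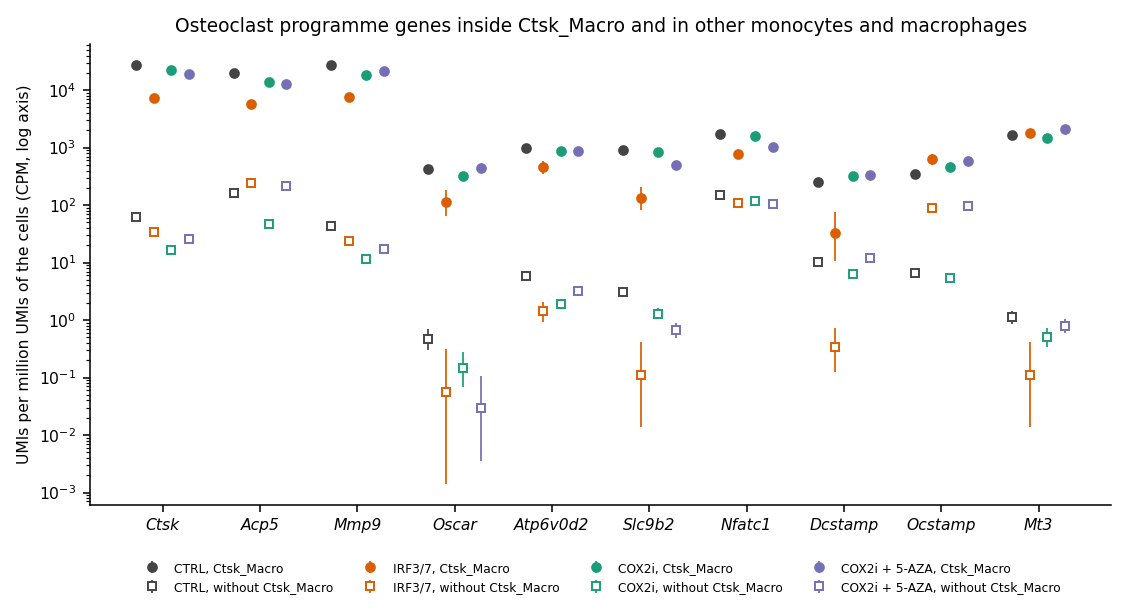
Level of each of the 10 genes (CPM, log axis) in the 4 libraries, with filled points for Ctsk_Macro and open points for the other monocytes and macrophages, and bars for exact 95% Poisson intervals. Filled points of Ctsk run from 7217 to 27454 CPM and open points from 16.7 to 62.1 CPM, and the open points of Ocstamp fall into a low pair (CTRL and COX2i) and a high pair (IRF3/7 and COX2i + 5-AZA).

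Outside Ctsk_Macro the members were far lower in the other monocytes and macrophages. Ctsk stood there at 62.1 CPM in CTRL, 33.9 in IRF3/7, 16.7 in COX2i and 25.7 in COX2i + 5-AZA, and Mmp9 at 43.9, 23.4, 11.8 and 17.1 CPM. Acp5 did not follow them, with 160 CPM in CTRL, 243 in IRF3/7, 46.6 in COX2i and 213 in COX2i + 5-AZA. Ocstamp stood at 6.51, 88.7, 5.47 and 97.7 CPM in that order, Nfatc1 at 152, 108, 120 and 104 CPM, and Dcstamp at 10.3, 0.339, 6.22 and 11.9 CPM. Oscar was near the limit of counting, with 24, 1, 9 and 2 UMIs, and the highest values of Slc9b2, Mt3 and Atp6v0d2 were those of CTRL (3.05, 1.12 and 5.86 CPM).

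In CTRL, Ctsk_Macro was thereby 442 times as high as the other monocytes and macrophages for Ctsk, 614 times for Mmp9, 124 times for Acp5, 902 times for Oscar, 293 times for Slc9b2, 171 times for Atp6v0d2 and 1502 times for Mt3. The ratio was 52.4 for Ocstamp, 24.8 for Dcstamp and 11.4 for Nfatc1. All 10 members were at least 2-fold higher, as the choice of members fixed. Of the 11585 genes with at least 20 UMIs in both populations together, 8.69% were at least 2-fold higher and 19.4% at least 2-fold lower.

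How far a member was confined to the class was measured as the share of its UMIs, over all cells of a library, that Ctsk_Macro cells held. Mt3 was held at 98.7% in CTRL, 97.8% in IRF3/7, 97.1% in COX2i and 93% in COX2i + 5-AZA, and Oscar at 97.6%, 94.4% (72.7 to 99.9), 96.5% and 98.5%. These 2 genes kept a share above 90% in every library with only 13 cells of the class in IRF3/7. Ctsk was held at 95.9% (95.7 to 96) in CTRL, 54.8% (52.6 to 57) in IRF3/7, 94.5% in COX2i and 81.2% in COX2i + 5-AZA, and Mmp9 at 96.9%, 69.9%, 95.9% and 82.2%. Slc9b2 was held at 94.8%, 76.9%, 93% and 80.1%, and Atp6v0d2 at 89.2%, 50.4%, 88.9% and 60.1%.

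Acp5, Ocstamp, Nfatc1 and Dcstamp were shared more widely. The share of Acp5 was 89.2% in CTRL and 86.6% in COX2i, but 15.7% (14.8 to 16.7) in IRF3/7 and 27.9% (27.3 to 28.6) in COX2i + 5-AZA. The share of Ocstamp was 70.8% (68.7 to 72.9) in CTRL and 59.6% in COX2i, but 5.12% in IRF3/7 and 3.63% (3.21 to 4.09) in COX2i + 5-AZA. Nfatc1 was held at 41.2%, 3.29%, 23.3% and 5.3%, and Dcstamp at 40.6%, 26.3%, 32.7% and 11.6%, in the order CTRL, IRF3/7, COX2i and COX2i + 5-AZA. These shares depend on the number of Ctsk_Macro cells as well as on levels outside, so they are read together with the levels above.

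**Figure D2:**
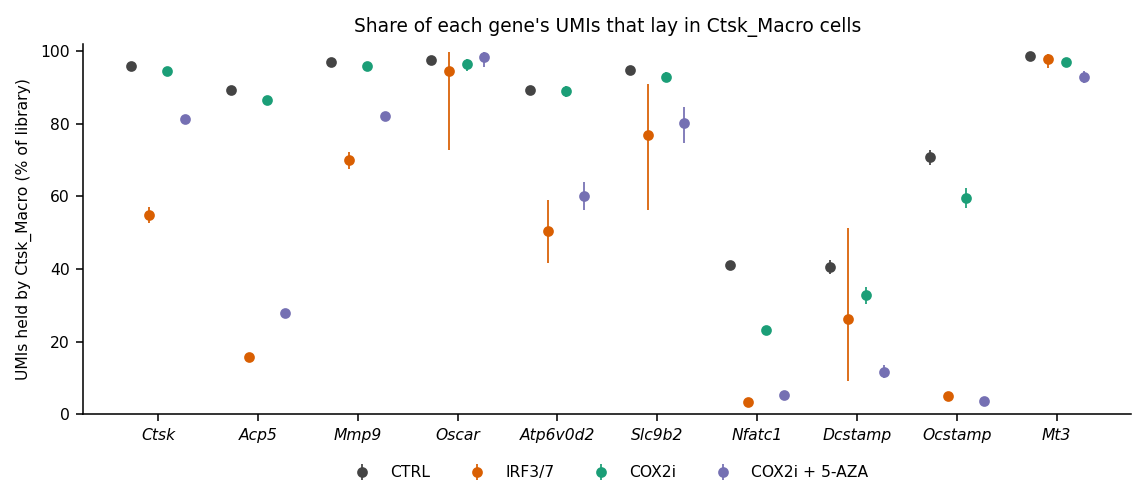
Percentage of each gene's UMIs that lay in Ctsk_Macro cells, for each of the 4 libraries, with exact 95% binomial intervals. Mt3 and Oscar stay above 90% in every library, whereas Acp5 spans 15.7% to 89.2% and Ocstamp 3.63% to 70.8%.

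The members were also counted together in single cells, after each cell had been thinned to 2000 UMIs so that depth did not set the number detected. The median Ctsk_Macro cell held 7 of the 10 members in CTRL, COX2i and COX2i + 5-AZA and 6 in IRF3/7. At least 5 members were detected in 88.2% of Ctsk_Macro cells of CTRL, 53.9% of IRF3/7, 81.3% of COX2i and 73% of COX2i + 5-AZA (485 of 573 in all). Outside the class this held for 8 of 31400 cells (0.0255%), and the highest of these, a Myofibrobl cell of COX2i, held 8 members. Members are on the study's marker list of the class, so the separation is a description of the class and no test of it.

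A few single cells carried much of the count outside the class. In Infl_Mono of IRF3/7, the inflammatory monocytes, 1 cell held 201 of 277 Ctsk UMIs and 189 of 219 Mmp9 UMIs. Without the top cell of each gene the class level went from 18.8 to 5.16 CPM for Ctsk and from 14.9 to 2.04 CPM for Mmp9. In mast cells of CTRL 1 cell held 61 of 66 Ctsk UMIs (207 CPM with it, 16.5 without), and in cycling macrophages (TAM_cycling) of COX2i + 5-AZA 1 cell held 241 of 488 Mmp9 UMIs (27 CPM with it, 13.7 without). For Mt3, 32 of 36 UMIs in Myofibrobl cells of COX2i lay in 1 cell. These cells were not removed, since they were picked after their values were seen.

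Each member outside Ctsk_Macro had its own set of classes. Classes are ordered here by the median of the libraries with at least 20 cells of the class, and the range over those libraries is given. For Ctsk the highest class after Ctsk_Macro was TAM_H2Ab1, macrophages high in MHC class II, at 157 CPM (156 to 165). Mast cells followed at 104 CPM (0 to 207), then the non-immune Myofibrobl cells at 80.7 CPM (65.3 to 119). The mast cell range overlapped both neighbours and rested on the single cell named above, while TAM_H2Ab1 lay above the Myofibrobl range. Without the top cell, TAM_H2Ab1 stood at 118 CPM in IRF3/7, 75.9 CPM in COX2i and 133 CPM in COX2i + 5-AZA, and Myofibrobl at 57.65 to 97.4 CPM. On these equal terms only the COX2i value, from 41 cells, lay inside the Myofibrobl range. Myofibrobl cells, C1q macrophages (TAM_C1q) and TAM_cycling held 28.2%, 24.4% and 22.1% of the 9469 Ctsk UMIs outside the class.

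Acp5 was a gene of several macrophage and monocyte classes. Its levels were 332 CPM (212 to 1036) in TAM_H2Ab1, 192 (67.3 to 273) in Spp1 macrophages (TAM_Spp1), 178 (50.3 to 288) in TAM_C1q and 155 (33.5 to 180) in Monocyte_1, and neighbouring ranges overlapped, so the order of these neighbours is not settled. Mmp9 had its highest level after Ctsk_Macro in neutrophils, which store the enzyme in granules, at 531 CPM in CTRL, 217 in IRF3/7 and 955 in COX2i + 5-AZA. TAM_H2Ab1 followed for Mmp9 at 96.4 CPM (58 to 113), below the neutrophil range.

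After Ctsk_Macro, Dcstamp was highest in cDC2, the conventional dendritic cells that mainly prime CD4 T cells, with 309 CPM in CTRL, 5.34 in IRF3/7, 198 in COX2i and 223 in COX2i + 5-AZA. In CTRL the cDC2 level (288 to 330) was above that of Ctsk_Macro itself (255 CPM, 239 to 271). TAM_Spp1 came next at 32.9 CPM (30.6 to 59.8), and cDC2 held 50.1% of the 3635 Dcstamp UMIs outside Ctsk_Macro. Ocstamp, its partner in fusion, had its highest median after Ctsk_Macro in Monocyte_1, at 48.9 CPM in CTRL, 186 in IRF3/7, 34.1 in COX2i and 178 in COX2i + 5-AZA. cDC2 followed for Ocstamp at 62.1, 121, 43.6 and 120 CPM, and its intervals overlapped those of Monocyte_1 in CTRL (53.2 to 72.1 against 23.4 to 89.9) and COX2i (36.8 to 51.2 against 25.9 to 44.2).

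Nfatc1, also a regulator of lymphocytes, had its highest median after Ctsk_Macro in NK cells, at 365 CPM in IRF3/7, 157 in COX2i and 239 in COX2i + 5-AZA. Mast cells (232 CPM, 200.5 to 264), cDC2 (192, 174 to 313) and TAM_Spp1 (166, 131 to 246) came next, and these ranges overlapped each other and that of NK cells. In COX2i, cDC2 (209 CPM) and TAM_Spp1 (166 CPM) lay above NK cells, and CTRL had too few NK cells to enter. Atp6v0d2 was high in mast cells, at 198 CPM in CTRL and 134 in COX2i + 5-AZA, and its next class, TAM_C1q, had a median of 7.5 CPM. Oscar, Slc9b2 and Mt3 had no such second class: they had 63, 352 and 234 UMIs outside Ctsk_Macro in all, and in the 4335 Infl_Mono cells of IRF3/7 Oscar had no UMI. A count of 0 there allows an Oscar level of up to 0.25 CPM.

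**Figure D3:**
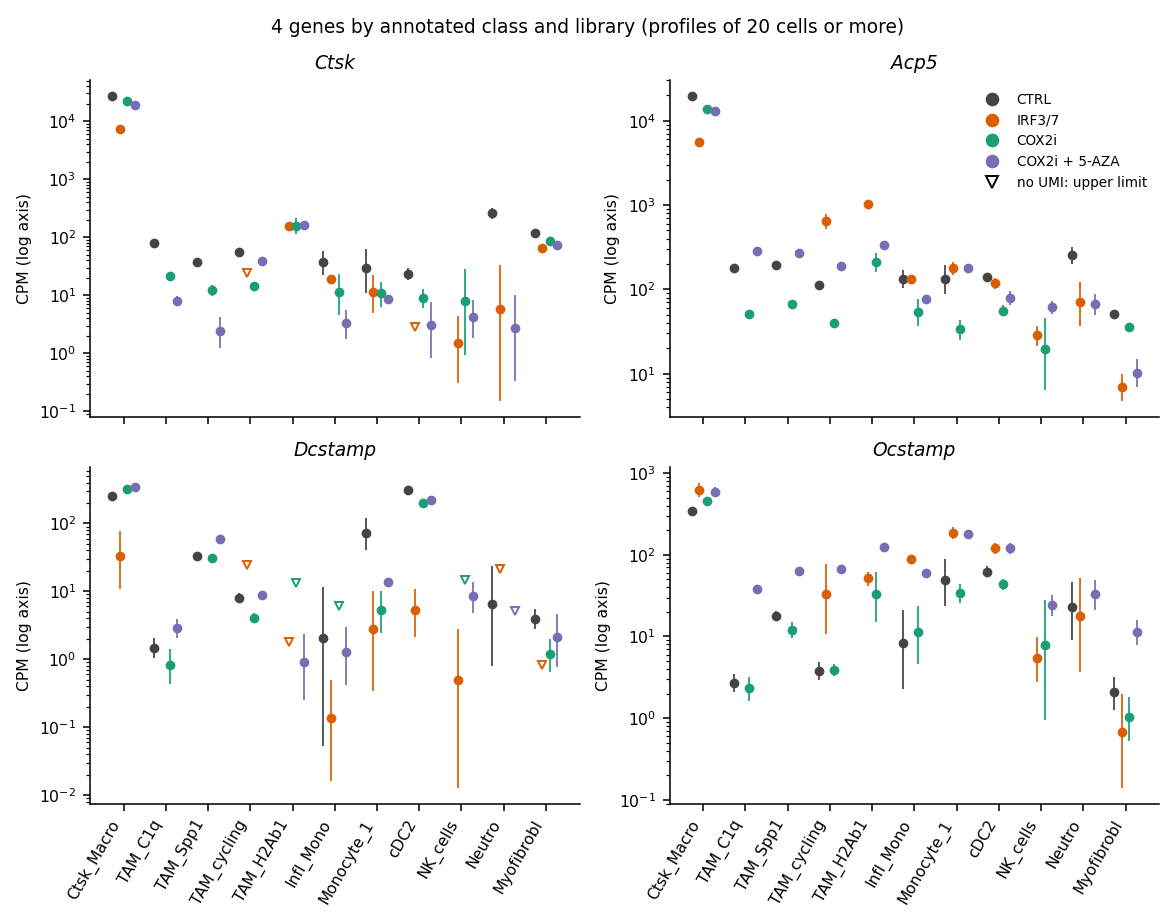
Level (CPM, log axis) of Ctsk, Acp5, Dcstamp and Ocstamp by annotated class, with 1 point per library for classes of at least 20 cells, bars for exact 95% Poisson intervals and triangles for the upper limit where no UMI was counted. Dcstamp in cDC2 of IRF3/7 lies at 5.34 CPM, far below the other 3 libraries (198 to 309 CPM), and Ocstamp in Monocyte_1 lies at 178 to 186 CPM in COX2i + 5-AZA and IRF3/7 against 34.1 to 48.9 CPM.

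The first comparison asked how the members differed when the cancer cells expressed Irf3 and Irf7. Over all monocytes and macrophages, 9 of 10 members were at least 2-fold lower in IRF3/7 than in CTRL and Ocstamp was the exception, at least 2-fold higher. Over all 11793 genes the shares were 32.2% lower and 9.16% higher, and the median gene stood at −0.54 on the log2 scale of CPM ratios, so a lower value was common in this comparison. Ctsk stood at 94.9 CPM against 1973 (log2 ratio −4.38, −4.45 to −4.31), Acp5 at 289 against 1526 (−2.40), Slc9b2 at 1.23 against 65.1 (−5.72, −6.40 to −5.12) and Dcstamp at 0.616 against 27.3 (−5.47, −6.48 to −4.63). Nfatc1 had the smallest difference of the 9, with 113 against 263 CPM (−1.22, −1.28 to −1.15), and −0.68 relative to the median gene. Ocstamp stood at 93.2 against 29.9 CPM (1.64, 1.54 to 1.74).

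Setting Ctsk_Macro aside changed this picture for the enzymes. In the remaining monocytes and macrophages, 5 of 10 members were at least 2-fold lower and 1 at least 2-fold higher, beside 32.2% and 9.09% of 11720 genes. Ctsk was at −0.87 (−0.999 to −0.745) and Mmp9 at −0.91 (−1.06 to −0.76), neither past the 2-fold limit, but 1 Infl_Mono cell of IRF3/7 held 201 of the 601 Ctsk UMIs and 1 held 189 of the 415 Mmp9 UMIs. Without the top cell of each gene in both libraries, Ctsk was at −1.37 (−1.52 to −1.22) and Mmp9 at −1.70 (−1.90 to −1.50), and 7 of 10 members were at least 2-fold lower. Over all cells of the population Acp5 was higher in IRF3/7 (0.61, 0.55 to 0.66), also without its top cells (0.59). It passed the 2-fold limit with median-of-ratios size factors (1.14) and among cells with more than 2000 detected genes (1.18, 1.11 to 1.25). The population differed in make-up, with monocytes 4596 of its 5022 cells in IRF3/7 and 139 of 7234 in CTRL. Within monocytes Acp5 stood at 136 CPM (130 to 142) in IRF3/7 and 134 CPM (108 to 164) in CTRL. In TAM_cycling it stood at 642 CPM (20 cells) against 113 CPM. Among cells with more than 2000 detected genes, Ctsk and Mmp9 turned to 0.22 (0.08 to 0.35) and 0.38 (0.21 to 0.54), so their direction outside the class depended on which cells were counted. Ocstamp was at 3.77 (3.596 to 3.943) and Dcstamp at −4.92 (−6.37 to −3.79; 6 against 522 UMIs). The other 4 members at least 2-fold lower were Atp6v0d2 (−2.05, −2.70 to −1.46), Slc9b2 (2 against 155 UMIs; −4.75, −7.81 to −2.88), Mt3 (2 against 57 UMIs; −3.31, −6.39 to −1.39) and Oscar (1 against 24 UMIs; −3.06, −8.43 to −0.45).

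Inside Ctsk_Macro, 8 of 10 members were at least 2-fold lower in the 13 cells of IRF3/7 than in the 380 of CTRL, and none was at least 2-fold higher, beside 12.4% and 17.4% of 9298 genes. Ctsk was at −1.93 (−2.02 to −1.84), Acp5 at −1.80 (−1.90 to −1.71), Mmp9 at −1.85 (−1.94 to −1.77), Slc9b2 at −2.76 (−3.47 to −2.13) and Nfatc1 at −1.17 (−1.45 to −0.91). Mt3 was at 0.09 (−0.09 to 0.27) and Ocstamp at 0.88 (0.56 to 1.18). Without the top cell of each gene in both libraries, 8 of 10 were again at least 2-fold lower, Mt3 turned to −0.34 (−0.56 to −0.12) and Ocstamp was at 0.55 (0.17 to 0.91). In the same 13 cells the summed macrophage markers were also lower (3869 against 9369 CPM), and the part of these cells' identity in the result was not tested.

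In cDC2 the 2 fusion genes differed between IRF3/7 and CTRL in opposite directions. Dcstamp had 7 UMIs in IRF3/7 and 859 in CTRL (log2 ratio −5.85, −7.17 to −4.80), and its UMIs were found in 1.28% of cDC2 against 59.2%. After thinning to 2000 UMIs these shares were 0.583% and 43.8%, so the gap remained at equal depth. Ocstamp in cDC2 was at 0.96 (0.64 to 1.28). In Infl_Mono, Ocstamp stood at 89.6 CPM in IRF3/7 and 8.26 in CTRL, where 4 UMIs were counted (3.44, 2.08 to 5.32).

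The second comparison set COX2i against CTRL. Over all monocytes and macrophages, 7 of 10 members were at least 2-fold lower in COX2i and none at least 2-fold higher, beside 4.7% and 1.93% of 11905 genes, with the median gene at 0.01. The 7 were Ctsk (590 against 1973 CPM; −1.74), Acp5 (403 against 1526; −1.92), Mmp9 (485 against 1922; −1.99), Oscar (8.59 against 30.1; −1.81), Atp6v0d2 (24.4 against 75.5; −1.63), Slc9b2 (23.2 against 65.1; −1.49) and Mt3 (39.4 against 118; −1.59). Nfatc1 (−0.72), Ocstamp (−0.78) and Dcstamp (−0.94) were lower by less than 2-fold, and Dcstamp reached −1.002 among cells with more than 2000 genes.

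Without Ctsk_Macro, 7 of 10 members, those just named, were at least 2-fold lower and none was at least 2-fold higher, beside 4.28% and 1.72% of 11834 genes. Ctsk was at −1.90 (−2.001 to −1.795), Acp5 at −1.78 (−1.84 to −1.72), Mmp9 at −1.90 (−2.02 to −1.78), Atp6v0d2 at −1.61 (−1.93 to −1.30), Slc9b2 at −1.23 (−1.64 to −0.83), Mt3 at −1.14 (−1.82 to −0.48) and Oscar at −1.67 (−2.97 to −0.52; 9 against 24 UMIs). In TAM_C1q alone Ctsk stood at 21.2 CPM in COX2i and 79.3 CPM in CTRL, and Acp5 at 50.3 against 178 CPM. Inside Ctsk_Macro, 0 of 10 members passed the 2-fold limit in either direction, beside 2.49% and 4.02% of 9634 genes. Values there ran from −0.57 (Mmp9, −0.59 to −0.55) to 0.44 (Ocstamp, 0.30 to 0.57), with Slc9b2 at −0.08 (−0.17 to 0.01). The log2 ratios of Ctsk, Acp5 and Mmp9 thus lay farther below 0 in the other monocytes and macrophages than in the class that holds most of their UMIs, and this difference was not tested. Ctsk_Macro cells, a possible source of free RNA for the others, numbered 380 in CTRL and 157 in COX2i, and their part in the values outside the class was not tested.

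The remaining comparisons concerned 5-azacytidine added to celecoxib. The comparisons with CTRL share the CTRL library, so their values are given side by side and not as support for each other. Over all monocytes and macrophages, 8 of 10 members were at least 2-fold lower in COX2i + 5-AZA than in CTRL and 1, Ocstamp, at least 2-fold higher, beside 11.3% and 5.65% of 12001 genes (median gene −0.16). Ctsk stood at 150 CPM (−3.72), Mmp9 at 154 (−3.65), Slc9b2 at 3.84 (−4.08), Acp5 at 295 (−2.37), Nfatc1 at 110 (−1.26) and Ocstamp at 101 (1.76, 1.68 to 1.83). Without Ctsk_Macro, 4 of 10 were at least 2-fold lower (Ctsk −1.27, Mmp9 −1.36, Slc9b2 −2.17 and Oscar −4.00, −7.13 to −1.99, the last with 2 against 24 UMIs) and Ocstamp at least 2-fold higher (3.91, 3.75 to 4.07), beside 10.4% and 5.54% of 11932 genes. Acp5 was there higher than in CTRL (0.41, 0.38 to 0.45). Inside Ctsk_Macro no member passed the limit in either direction, beside 9.26% and 6.52% of 9346 genes, and values ran from −0.86 for Slc9b2 (−1.06 to −0.66) to 0.80 for Ocstamp (0.60 to 0.99). Mt3 turned from 0.30 (0.20 to 0.40) to −0.05 (−0.17 to 0.07) and Oscar from 0.05 (−0.17 to 0.26) to −0.13 (−0.38 to 0.11) without the top cells.

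Against COX2i, where the groups differ by the added drug, 6 of 10 members were at least 2-fold lower over all monocytes and macrophages and 1 at least 2-fold higher, beside 9.77% and 6.16% of 11940 genes (median gene −0.19). Ctsk was at −1.98 (−2.01 to −1.95), Mmp9 at −1.66, Slc9b2 at −2.60, Oscar at −1.58, Atp6v0d2 at −1.48 and Mt3 at −1.48, whereas Acp5 was at −0.45, Nfatc1 at −0.53 and Dcstamp at −0.03 (−0.16 to 0.10). Ocstamp was at 2.54 (2.45 to 2.63). Without Ctsk_Macro, none of the 9 members with enough UMIs was at least 2-fold lower and 2, Acp5 and Ocstamp, were at least 2-fold higher, beside 9.35% and 6.41% of 11892 genes. Inside Ctsk_Macro, none passed the limit either way, beside 6.93% and 3.42% of 8430 genes, with values from −0.78 (Slc9b2, −0.99 to −0.57) to 0.47 (Mt3, 0.36 to 0.58, and 0.15 without the top cells).

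The sizes of the Acp5 and Ocstamp differences between COX2i + 5-AZA and COX2i varied by class. Acp5 in COX2i + 5-AZA and COX2i stood at 288 and 50.3 CPM in TAM_C1q (log2 ratio 2.52, 2.41 to 2.63), 273 and 67.3 CPM in TAM_Spp1 (2.02, 1.87 to 2.18), 190 and 39.7 CPM in TAM_cycling (2.26, 2.17 to 2.35) and 180 and 33.5 CPM in Monocyte_1 (2.43, 2.04 to 2.83). The CTRL levels of Acp5 in these 4 classes, 178, 192, 113 and 132 CPM, lay between those of the 2 drug libraries. The Acp5 differences were smaller in TAM_H2Ab1 (332 against 212 CPM), cDC2 (80 against 55.8 CPM; 0.52, 0.16 to 0.87), Infl_Mono (76.7 against 54 CPM; 0.50, −0.02 to 1.07) and cDC1 (26.5 against 20.7 CPM; 0.36, −0.90 to 1.61). Acp5 was lower in Myofibrobl (10.3 against 36 CPM; −1.80, −2.40 to −1.26). In Macro it stood at 28.2 against 103 CPM, but 1 of the 23 cells of COX2i held 18 of the 21 UMIs there. Without the top cell of each library the Macro levels were 23.36 against 16.25 CPM, so the direction rested on that cell. Ocstamp stood at 38 and 2.32 CPM in TAM_C1q (4.03, 3.55 to 4.55), 67.6 and 3.91 CPM in TAM_cycling (4.11, 3.86 to 4.38), 62.8 and 12.2 CPM in TAM_Spp1 (2.37, 2.02 to 2.74) and 178 and 34.1 CPM in Monocyte_1 (2.38, 2.00 to 2.78). It was also higher in cDC2 (120 against 43.6 CPM; 1.47, 1.13 to 1.80) and stood at 24.3 against 7.84 CPM in NK cells. For Ocstamp the CTRL levels in TAM_C1q, TAM_cycling and TAM_Spp1 were 2.73, 3.81 and 18 CPM, nearer to those of COX2i than to those of COX2i + 5-AZA.

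Because Ctsk_Macro made up 5.62% of all UMIs in CTRL and 0.575% to 2.07% elsewhere, the CTRL level of each class was weighted by the class shares of each other library. This gives the level that the mix of classes alone would produce, as a description. For Ctsk the mix alone gave −2.88 of the measured −4.38 in IRF3/7, −1.36 of −1.74 in COX2i and −3.14 of −3.72 in COX2i + 5-AZA. For Mt3 it gave −3.05 where −2.95 was measured, −1.41 where −1.59 was measured and −3.38 where −3.07 was measured. In COX2i + 5-AZA against COX2i it gave −1.99 of −1.48 for Mt3, leaving 0.51. Acp5 in COX2i + 5-AZA against COX2i was at −0.45 where the mix gave −1.49, leaving 1.04. The Ocstamp values lay on the other side of the mix, with 1.64 measured and −1.03 from the mix in IRF3/7, 1.76 and −0.42 in COX2i + 5-AZA against CTRL, and 2.54 and 0.12 in COX2i + 5-AZA against COX2i. Classes common in the other libraries were rare in CTRL, so the Ocstamp mix rests on few UMIs: Infl_Mono of CTRL held 4 (8.26 CPM, 2.25 to 21.2) and Monocyte_1 held 10 (48.9 CPM, 23.4 to 89.9). Dcstamp in IRF3/7 was left with −3.49 and Slc9b2 with −2.70 beyond the mix. These 2 values also rest on few CTRL UMIs. Infl_Mono of CTRL held 1 Dcstamp UMI, and Monocyte_1 held 15, of which 1 cell had 7. For Slc9b2 the same classes held 0 and 2 UMIs. The class borders rest partly on these genes, so the split between mix and level is not unique.

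**Figure D4:**
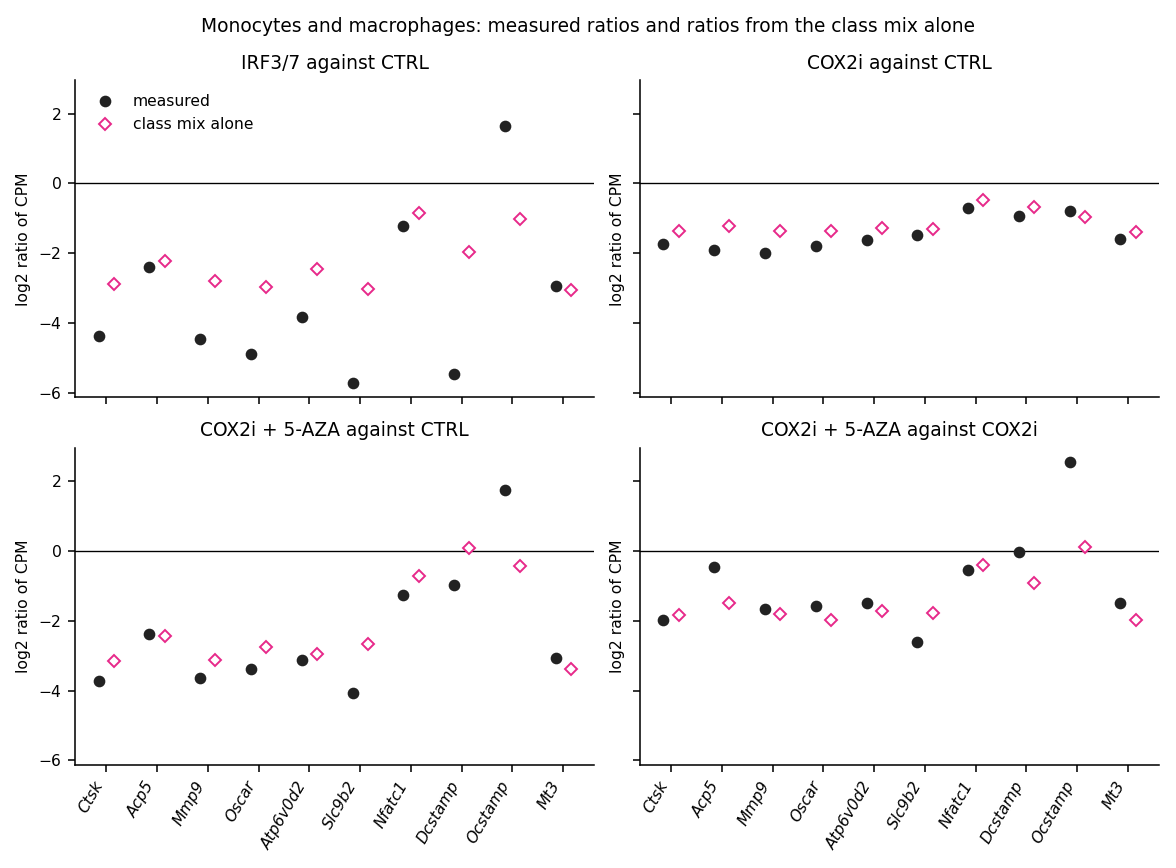
Log2 ratio (vertical axis) of each of the 10 genes (horizontal axis) in monocytes and macrophages, with 1 panel for each of the 4 comparisons. Filled circles are the measured ratios and open diamonds the ratios given by the mix of classes alone. For Mt3 the circle lies near the diamond in the panels against CTRL. For Ocstamp the circle lies 2.68, 2.17 and 2.42 above the diamond for IRF3/7 over CTRL, COX2i + 5-AZA over CTRL and COX2i + 5-AZA over COX2i.

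The wider osteoclast pathway was read from a list of 71 genes compiled from textbook knowledge, of which 69 were in the table and 5 (Atp6v0b, Atp6v1a, Atp6v1b2, Atp6v1g1 and Timp2) are on the study's own marker list of the class. In CTRL, 68 had enough UMIs, and in Ctsk_Macro 27 were at least 2-fold higher and 7 at least 2-fold lower than in the other monocytes and macrophages, with a median log2 ratio of 0.21, beside 8.69% higher and 19.4% lower over all genes. Without the 5 study markers it was 22 and 7 of 63, with a median of 0.19. Among the receptors and adhesion genes, Calcr, the calcitonin receptor, had 85 UMIs inside and 2 outside (9.15, 7.25 to 12.21). Siglec15, an ITAM-coupled lectin, stood at 207 against 0.964 CPM (7.74), Itgb3, the integrin chain of the sealing zone, at 185 against 2.87 CPM (6.01), and Tnfrsf11a, which encodes RANK, at 539 against 206 CPM (1.39). Car2, the carbonic anhydrase that supplies protons, stood at 79.7 against 0.413 CPM (7.59), and the proton pump and vesicle genes Tcirg1 (1.22), Clcn7 (1.55), Snx10 (2.60) and Slc4a2 (2.38) were also at least 2-fold higher.

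Not all of the pathway went with the members, although the 7 of 68 genes that were lower made up a smaller share than the 19.4% of all genes. Mmp12 (−3.51) and Mmp13 (−2.87), both matrix metalloproteinases, and Adam8 (−2.64), a fusion gene, were at least 2-fold lower in Ctsk_Macro of CTRL. Of the repressors of the fate, Irf8 (−2.05) and Id2 (−1.43) were at least 2-fold lower. Tnfsf11, which encodes RANK ligand, had 0 UMIs in Ctsk_Macro and 9 in the other monocytes and macrophages. Mt1 (0.19) and Mt2 (0.18), the widespread metallothioneins, differed little where Mt3 was at 10.55.

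**Figure D5:**
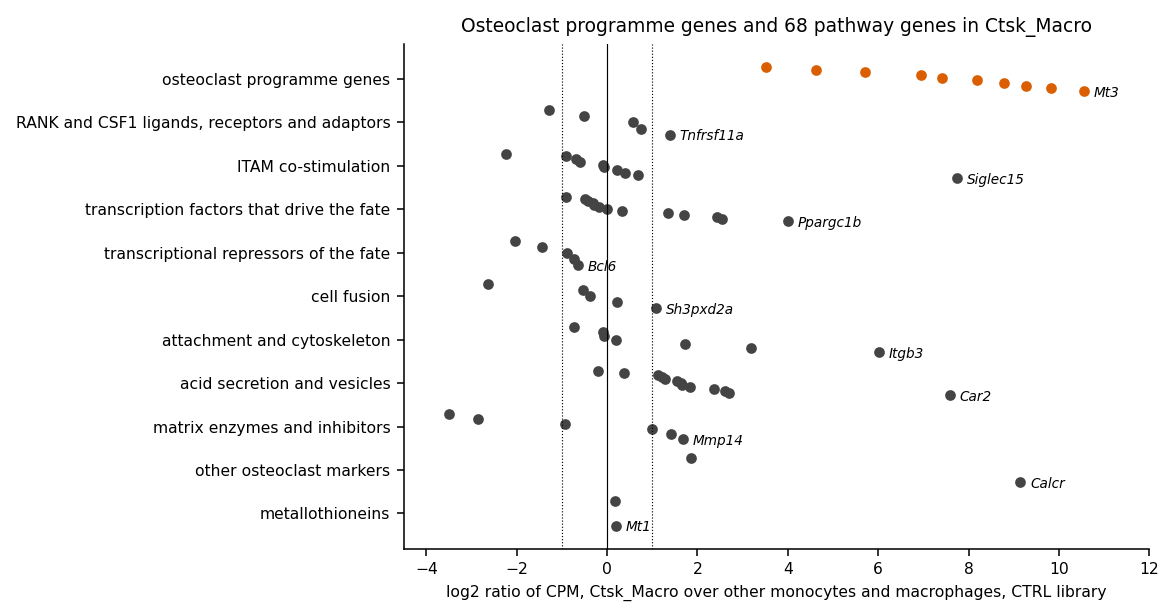
Log2 ratio of CPM in Ctsk_Macro over the other monocytes and macrophages of CTRL for the 10 members (orange) and 68 pathway genes, grouped by role, with dotted lines at the 2-fold limits. All members lie between 3.51 and 10.55, whereas 27 pathway genes lie above the upper line, 7 below the lower line and the rest between.

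Between libraries the pathway genes were counted in the same way as the members. In monocytes and macrophages, 22 of 68 were at least 2-fold lower and 6 at least 2-fold higher in IRF3/7 than in CTRL (median −0.22), 4 and 1 of 68 in COX2i (−0.19), 11 and 4 of 68 in COX2i + 5-AZA (−0.13), and 6 and 4 of 67 in COX2i + 5-AZA against COX2i (0.08). Beside the shares of all genes given above, these counts, all scaled to total UMIs, lay near the background. With median-of-ratios size factors the IRF3/7 counts were 13 lower and 17 higher. No share of all genes is given with that scaling, so the 13 and 17 are not read against a background. Of the genes with the highest ratios inside Ctsk_Macro, Siglec15 was at −3.85, −1.49 and −3.36 and Itgb3 at −4.32, −1.81 and −2.64 in IRF3/7, COX2i and COX2i + 5-AZA against CTRL. Calcr had 87 UMIs in CTRL, 12 in COX2i, 7 in COX2i + 5-AZA and 0 in IRF3/7, where the floor of 3 UMIs gives a log2 ratio of at most −3.24. Car2, also among the highest inside the class, was at −0.22 (−0.57 to 0.12), −0.92 (−1.18 to −0.66) and −0.13 (−0.35 to 0.09). Irf8, a repressor of the fate and an interferon-regulated gene, was higher in IRF3/7 (1.05) and COX2i + 5-AZA (1.17) and at 0.19 in COX2i. Inside Ctsk_Macro, 2 of 65 pathway genes were at least 2-fold lower in COX2i than in CTRL (Itgb3 −1.11, −1.38 to −0.84; Calcr −1.72, −2.78 to −0.81) and 1, Mmp12, at least 2-fold higher (4.18, 3.40 to 5.06), beside 2.49% and 4.02% of all genes. The counts there were 16 lower and 10 higher of 64 in IRF3/7, beside 12.4% and 17.4%, 5 and 5 of 66 in COX2i + 5-AZA, beside 9.26% and 6.52%, and 2 and 3 of 64 in COX2i + 5-AZA against COX2i, beside 6.93% and 3.42%.

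Free RNA in droplet assays gives UMIs in cells that do not make a transcript, so shares of cells with a UMI are set beside NK cells. Ctsk was detected in 97.3% to 99.5% of Ctsk_Macro cells of CTRL, COX2i and COX2i + 5-AZA and in 69.2% of IRF3/7. In the other monocytes and macrophages it was detected in 14.3% of cells in CTRL, 1.33% in IRF3/7, 6.84% in COX2i and 3.07% in COX2i + 5-AZA. In NK cells it was detected in 0.528% in IRF3/7, 4% in COX2i and 1.83% in COX2i + 5-AZA. Median depths were 2674.5, 3099 and 2606 UMIs for NK cells and 3143, 7579 and 6287 UMIs for the other monocytes and macrophages. At 2000 UMIs per cell, Ctsk was found in 2.22% of the other monocytes and macrophages against 3.23% of NK cells in COX2i, and in 1.22% against 1.38% in COX2i + 5-AZA. The COX2i value rests on 1 of 31 NK cells. In IRF3/7 it was found in 0.815% against 0.244% (1 of 409 NK cells), with 33.9 CPM (31.3 to 36.8) against 1.49 CPM (0.308 to 4.36). In the other 2 libraries the sums of UMIs ordered these populations otherwise, with 16.7 CPM against 7.84 CPM (0.949 to 28.3, an interval that holds both) in COX2i and 25.7 (24.5 to 26.9) against 4.22 CPM (1.82 to 8.31) in COX2i + 5-AZA, so no order is read from the shares there.

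Acp5 and Ocstamp were set beside NK cells in the same way. At 2000 UMIs, Acp5 was found in 23.7% of the other monocytes and macrophages against 4.89% of NK cells in IRF3/7, and in 26.5% against 7.56% in COX2i + 5-AZA. Ocstamp was found in 13.8% against 1.71% in IRF3/7 and in 15.6% against 3.09% in COX2i + 5-AZA, but in 1.17% against 3.23% (1 of 31 cells) in COX2i. In CTRL, with too few NK cells to compare, 23.6% of the other monocytes and macrophages had an Acp5 UMI at 2000 UMIs and 1.61% an Ocstamp UMI. For each Ctsk UMI, CTRL had 0.719 Acp5 UMIs in Ctsk_Macro, 2.24 in TAM_C1q, 5.1 in TAM_Spp1 and 6.03 in cDC2, so Acp5 and Ctsk did not keep 1 ratio across classes.

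Cells that shared a droplet barcode with a Ctsk_Macro cell of another library were also examined. In CTRL the 27 such cells held 251 CPM of Ctsk (192 to 323) against 69.9 CPM in the 8546 others outside the class, whereas Mmp9 stood at 37.1 against 50.8 CPM and Acp5 at 124 against 142 CPM. In COX2i Ctsk stood at 46.3 against 26.8 CPM, in COX2i + 5-AZA at 52.9 against 25.8 CPM, and in IRF3/7 at 19 against 34.5 CPM. Acp5 in COX2i + 5-AZA stood at 330 CPM (284 to 381) in the sharing cells and 194 CPM (191 to 198) in the others. Ctsk was thus higher in the sharing cells of 3 libraries and lower in IRF3/7, and the part of shared droplets in the levels outside Ctsk_Macro was not tested further.

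Over the 40 profiles of a class in a library with at least 50 cells, the member closest to the mean pattern of the members was Oscar (Pearson r = 0.96), then Slc9b2 (0.93) and Mt3 (0.91). Ocstamp (0.54) and Dcstamp (0.62) were farthest from it. The correlation of Ctsk with Acp5 was 0.69 over all 40 profiles and 0.24 over the 38 outside Ctsk_Macro, where the closest pairs were Ctsk with Atp6v0d2 (0.63), Ctsk with Mmp9 (0.61) and Mmp9 with Atp6v0d2 (0.60), and Acp5 came closest to Ocstamp (0.52). Profiles of a library share its depth and its pool of tumours, so these are descriptions only. Outside the members, the 10 genes most like the mean pattern were Pate4, Erich2, Slc44a4, Kazn, Slc9b1, Card14, Tmem246, Slc24a5, Prss8 and Ckmt1 (r from 0.92 to 0.94). Kazn was the most counted of them, with 68.8 to 70.3 CPM in Ctsk_Macro of CTRL and COX2i, the 2 libraries with at least 50 cells of the class, and at most 0.855 CPM in any other profile, followed by Tmem246 with 25.4 to 31.9 CPM and at most 0.623 CPM. Others rested on few UMIs even in Ctsk_Macro: Erich2 stood there at 1.23 to 1.31 CPM and Slc44a4 at 2.88 to 3.07 CPM. Slc9b1, Card14, Slc24a5 and Ckmt1 lay between 1.57 and 2.62 CPM.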

How the data were processed

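Transcripts of fixed cells were read with ligated probe pairs (Chromium Flex), so only the probed part of a transcript is read. The authors processed the reads with Cell Ranger 7.1.0 (mm10 probe set), filtered cells and genes, and deposited a matrix of raw UMI counts, not normalised, with an annotation of 17 classes, which was used as deposited. The members, the pathway and marker lists and the rules for naming genes were chosen with earlier results of these data known. All 10 members, pathway genes past 2-fold in most comparisons, and the 10 genes most like the members were named. The other pathway genes were picked for naming after their values were seen. UMIs were summed over cells of a class or population, divided by their total UMIs and given as CPM. Monocytes and macrophages were Infl_Mono, Monocyte_1, Monocyte_3, TAM_C1q, TAM_Spp1, TAM_cycling, TAM_H2Ab1, Ctsk_Macro and Macro. Sums carry exact Poisson, shares exact Clopper-Pearson and log2 ratios exact conditional 95% intervals. Counts of genes past 2-fold used genes with 20 or more UMIs over the pair of libraries, a count of 0 was set to 3 UMIs per library, ratios within a class needed 50 cells in both libraries except in Ctsk_Macro, and profiles were log2(CPM + 1). Steps were tested on simulated data. The tools were Python 3.11.15, NumPy 2.4.6, pandas 2.3.3 and SciPy 1.17.1. Alternatives were median-of-ratios size factors, no minimum of UMIs, cells with more than 2000 genes, all cells, thinning to 2000 UMIs, and other profile and correlation choices. Levels and ratios without the top cell and levels without cells in shared droplets were added after the data had been seen.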

Additional observations from a re-analysis of the deposited data

Results flagged for a closer look

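Against COX2i, COX2i + 5-AZA differed in opposite directions between classes for 3 members, with the 2 intervals on opposite sides of 0. Ctsk was at 1.40 on the log2 scale in TAM_cycling and at −2.37 in TAM_Spp1. Acp5 was at 2.52 in TAM_C1q and at −1.80 in Myofibrobl cells, and in Myofibrobl cells of COX2i 1 cell held 258 of 421 Acp5 UMIs. Mmp9 was at 1.58 in TAM_cycling and at −1.55 in cDC2. With 1 library per group the differences between these classes were not tested. In TAM_cycling of COX2i + 5-AZA, 1 cell held 245 of 701 Ctsk UMIs and 241 of 488 Mmp9 UMIs, and without it the levels were 25.3 in place of 38.8 CPM and 13.7 in place of 27 CPM.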

How the results depend on the processing

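No paired analysis was possible because each group had 1 library, and for the same reason no library could be left out. Among the 24 counts of members and pathway genes past 2-fold, 4 moved by over 1.5 times with median-of-ratios size factors: pathway genes lower in IRF3/7 (13 in place of 22), higher in IRF3/7 (17 in place of 6), lower in COX2i + 5-AZA against CTRL (7 in place of 11), and members higher in IRF3/7 without Ctsk_Macro (2 in place of 1, the second being Acp5). The shares of all genes given here hold for total UMIs only, so they are no background for counts with size factors. With no minimum of UMIs, 1 member in place of 0 was at least 2-fold lower in COX2i + 5-AZA against COX2i without Ctsk_Macro. With only cells of more than 2000 genes, members higher in IRF3/7 without Ctsk_Macro again numbered 2 in place of 1 and the other 23 counts stayed within 1.5 times. The 8 counts of members outside Ctsk_Macro without the top cell of each gene also stayed within it. Alternatives for the counts of members at least 2-fold higher, and those without top cells, were chosen after seeing the data. Single values moved more: 39 of 80 log2 ratios of members left their interval with size factors, 30 of 80 with cells of more than 2000 genes, 20 of 40 over all cells and, outside Ctsk_Macro, 6 of 40 without top cells, as did 63 of 80 shares of cells with a UMI after thinning and 19 of 40 shares held by Ctsk_Macro with cells of more than 2000 genes. Ratios inside Ctsk_Macro are not in the 6 of 40. There, in IRF3/7 against CTRL, Ctsk moved from −1.93 to −2.28 and Mt3 from 0.09 to −0.34. No member's log2 ratio past 2-fold with all cells and scaling to total UMIs changed sign under any of these settings. The genes most like the members depended on the choices: 5 of 10 were shared when profiles of at least 20 cells entered and 0 with Spearman correlation. Depth limited Oscar, Slc9b2 and Mt3 outside Ctsk_Macro, and 13 cells limited every value inside it in IRF3/7.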
